A study of Homo sapiens with 28 samples.

Results

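The integrated stress response genes that act with the transcription factor ATF4 were examined in HCT116 cells, a human colorectal carcinoma line, grown as tumors and as cultures. The 10 genes ATF4, ATF3, ATF5, DDIT3, DDIT4, TRIB3, CHAC1, SESN2, CEBPB and PPP1R15A were chosen by name, and all 10 were found once among the 58278 genes of the deposited table of read counts. The 28 RNA-seq libraries comprised 16 residual xenograft tumors and 12 cell cultures. HCT116 cells carrying luciferase and GFP had been injected under the skin of male NOD SCID mice, 5 weeks old and lacking mature B and T lymphocytes, and the mice received by daily oral gavage either vehicle (Control), Palbociclib, an inhibitor of the cyclin-dependent kinases CDK4 and CDK6, Telaglenastat (spelled Telaglenestat in the labels), an inhibitor of glutaminase, or both drugs (combination). Tumors were taken at the end of treatment, with 3 Control, 5 Palbociclib, 4 Telaglenastat and 4 combination libraries. The cultures, 3 from each treatment, were lines that the authors grew out of dissociated residual tumors, in a medium that, as the methods list it, held glutamine and no drug, so that a treatment name for a culture refers to what the mouse had received. The labels do not tie a culture to a tumor library. All samples derive from 1 parental cell line, and the tumors also hold mouse cells. The sources used here do not say whether reads from mouse RNA were removed before counting.

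When eIF2 is phosphorylated by one of its stress kinases, for example on amino acid shortage or misfolded protein in the endoplasmic reticulum (ER), most translation slows while ATF4 mRNA is translated more. ATF4 then binds, often as a dimer with a C/EBP protein, to C/EBP-ATF response elements (CARE) and raises transcription of genes for amino acid uptake and synthesis, of further transcription factors, and of genes that restrain growth or restore translation. Since this control of ATF4 is largely on translation, the mRNA of its target genes is commonly read as the output of the pathway.

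The 10 genes fall into 4 roles. ATF4, ATF3, ATF5, CEBPB and DDIT3 (the protein CHOP) encode bZIP transcription factors. DDIT4 (REDD1) and SESN2 restrain the growth kinase complex mTORC1, and TRIB3 encodes a pseudokinase that binds AKT and ATF4. CHAC1 encodes an enzyme that degrades glutathione. PPP1R15A (GADD34) brings a phosphatase to eIF2 and so ends the response. In the RefSeq promoters (GRCh38.p14, from 250 bases before to 50 bases after each start site), all 10 genes matched, with 18 promoters among them. The letters TGATGNAA, the core of a CARE, or their reverse complement were present in 2 of these 18 promoters, against 3.62% of 35116 promoters of all genes, and the cAMP response element TGACGTCA was present in 1 of 18, against 1.85%. The windows of 30 bases that hold these matches are shown because they are the kind of sequence that ATF4 and its partners bind, with the matched letters in capitals, read 5′ to 3′ on the plus strand, on which all 3 genes lie:
ATF3: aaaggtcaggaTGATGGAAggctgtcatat
CHAC1: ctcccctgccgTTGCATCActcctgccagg
PPP1R15A: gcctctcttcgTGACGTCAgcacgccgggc
The ATF3 window is chr1:212565205-212565234, with the first matched base 191 bases before the start site, upstream of the gene. The CHAC1 window is chr15:40953251-40953280, 209 bases before the RefSeq start site, and its match reads on the minus strand. In GENCODE 29 the CHAC1 gene begins further upstream, at position 40952962, so that the same window lies inside the gene there. The PPP1R15A window is chr19:48872352-48872381, 58 bases before the start site and upstream of the gene. No match in the other promoters says only that these letters are not in those windows.

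Libraries held 6273834 to 13815675 counts. Levels are given as CPM, which are counts brought to one common library total, with TMM scaling factors, and differences as log2 fold changes with their standard errors (SE) from the quasi-likelihood test of edgeR, whose p-values were adjusted by Benjamini-Hochberg over all genes tested, with a threshold of 0.05. In the tumors, expression moved with the GC content of the transcripts in a way that separated the treatments. Deviations of log2 CPM changed for each SD of GC content by 0.343 ± 0.00575 (mean ± SD of the libraries, n = 3) in Control, 0.372 ± 0.104 (n = 5) in Palbociclib, -0.241 ± 0.0351 (n = 4) in Telaglenastat and -0.115 ± 0.0557 (n = 4) in combination tumors. In Telaglenastat against Control tumors, the median log2 fold change was 0.43 for genes of 30 to 35% GC and -1.66 for genes of 65 to 70% GC. The 10 genes are rich in GC, with a median of 59.2% (range 46.7 to 66.2%) against a median of 48.0% over genes tested in tumors, and 8 of the 10 were at or above 56%. Differences are therefore given on 2 scales: as measured, and after a smooth dependence on transcript length and GC content had been taken out of each library (called corrected below). Whether the trend arose in the cells or during library preparation cannot be told apart from these files, since it follows treatment. Markers of mouse or other cells moved with treatment too. The summed level of 17 stroma, vessel and immune genes was 280 to 329 CPM in Control, 222 to 328 in Palbociclib, 78.5 to 98.4 in Telaglenastat and 151 to 228 in combination tumors, against 8.98 to 32.9 in cultures of the Control group and at most 32.4 in the other cultures, with LUM, DCN and CDH5 under 10 counts in all libraries together. The 8 epithelial markers summed to 2969 to 3433 CPM in Control, 2938 to 4370 in Palbociclib, 1538 to 1719 in Telaglenastat and 2268 to 2462 in combination tumors, with CEACAM5 under 10 counts in all libraries together. In cultures they summed to 1385 to 1956 CPM in Control, 1348 to 1407 in Palbociclib, 1498 to 2433 in Telaglenastat and 1264 to 1443 in combination. Both sums are as measured, without the correction. The part of these cells in the results below was not tested, and fewer cells of a type and less RNA per cell cannot be told apart in bulk samples.

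By the mean over all libraries of a setting, ATF4 was the most abundant of the 10 mRNAs per length, at 104 CPM per kilobase in tumors and 225 in cultures. DDIT4 followed with 100.3 in tumors and 51.6 in cultures. The order in tumors changed with treatment: DDIT4 was above ATF4 in Control tumors (117 against 104) and in Palbociclib tumors (118 against 104). CHAC1 was the least abundant, at 0.418 in tumors and 3.85 in cultures, and the other genes had mean levels of 3.08 to 13.8 CPM per kilobase in tumors. Across the 8 conditions the mean levels of ATF3, CEBPB and PPP1R15A spanned less than 1 log2 unit (0.78, 0.77 and 0.90), whereas TRIB3 spanned 2.74 and CHAC1 4.59. The condition with the highest mean CPM was the Telaglenastat cultures for 8 of the 10 genes, and the Palbociclib tumors for DDIT4 and PPP1R15A. Of these 8 genes, the next condition in order was within the SD of the Telaglenastat cultures for all but TRIB3. The ranking also changed with the scale and with 1 library. Corrected levels were computed apart for tumors and for cultures, so that they rank conditions only within 1 setting. By corrected means among the cultures, Telaglenastat was highest for ATF3, DDIT3, CHAC1, SESN2 and CEBPB, and combination for ATF4, ATF5, DDIT4, TRIB3 and PPP1R15A. The 2 Telaglenastat cultures other than the second had mean CHAC1 and SESN2 levels, as measured, below those of the Control cultures. ATF4 ranged from 228 to 282 CPM over the 16 tumors and from 433 to 786 CPM over the 12 cultures. Tumors and cultures did not overlap for ATF4, and the 4 tumor conditions did overlap with each other. DDIT4 was ordered the other way, at 158 to 287 CPM in tumors and 40.2 to 187 CPM in cultures, and 1 culture, the second Telaglenastat library, overlapped with the tumors. Reads of ATF4 could be shared with its processed pseudogenes ATF4P1 to ATF4P4, and ATF5, DDIT3, DDIT4 and CEBPB overlap other genes, so that their counts are less certain.

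The comparison of untreated tumors with cultures grown from untreated tumors addresses how the setting itself went with these genes. ATF4, TRIB3 and CHAC1 were lower in Control tumors than in Control cultures, and DDIT4 and PPP1R15A were higher. These 5 of 10 genes stand against 45.9% of 15466 genes called, and after correction 6 of 10 were called, against 40.7%. ATF4 was at 267, 282 and 232 CPM in Control tumors and at 572, 478 and 541 CPM in Control cultures. Its log2 fold change was -1.03 (SE 0.12, adjusted p = 1.03e-07) and -1.51 (SE 0.14, adjusted p = 1.16e-09) after correction. Every tumor was below every culture for this gene. TRIB3 was at 25.2, 25.9 and 20.8 CPM in tumors and 63.5, 45.3 and 81.5 CPM in cultures, again without overlap. Its log2 fold change was -1.4 (SE 0.30, adjusted p = 0.000438) and -2.11 (SE 0.26, adjusted p = 2.58e-07) after correction. CHAC1 showed the largest difference of the 10 genes, at 0.837, 0.521 and 0.722 CPM in tumors and 8.14, 3.84 and 12.8 CPM in cultures. Its log2 fold change was -3.54 (SE 0.65, adjusted p = 6.17e-05) and -4.26 (SE 0.54, adjusted p = 3.27e-07) after correction. The tumors held 19 CHAC1 counts in all and the cultures 184, a ratio per depth of 0.0853 with an exact 95% interval of 0.0502 to 0.137 that covers counting error only.

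Among the mTORC1 inhibitors, the genes went different ways. DDIT4 was at 207, 278 and 237 CPM in Control tumors and 84.8, 57.2 and 114 CPM in Control cultures. It was higher in tumors, by a log2 fold change of 1.5 (SE 0.27, adjusted p = 6.32e-05) and 0.96 (SE 0.22, adjusted p = 0.000884) after correction. SESN2 was at 13.5, 11.9 and 12.2 CPM in tumors and 20.1, 11.5 and 29.6 CPM in cultures, with overlap between the groups. Its log2 fold change was -0.70 (SE 0.35, adjusted p = 0.105), and it passed the threshold after correction, at -1.32 (SE 0.24, adjusted p = 7.84e-05). ATF5 likewise passed only after correction, at -0.87 (SE 0.20, adjusted p = 0.000875), and PPP1R15A only without it, at 0.79 (SE 0.21, adjusted p = 0.0033). The intervals for ATF3 (-0.71 to 0.05), DDIT3 (-0.67 to 0.40) and CEBPB (0.05 to 0.94) came without a call. CEBPB turned from 0.49 (SE 0.23, adjusted p = 0.0771) to -0.46 (SE 0.23, adjusted p = 0.106) after correction, so that its direction depended on the scale. ATF4, TRIB3, CHAC1 and DDIT4 were called on both scales, and their calls without correction held with each library left out in turn. Corrected fits with a library left out were not run for this comparison. Over the 10 genes the median log2 fold change was -0.26, and -0.66 after correction, against 0.067 and -0.034 over all genes tested.

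Other genes of the pathway were read from lists chosen by function, for which the background in this comparison was 3531 genes lower and 3568 higher of 15466, or 3547 lower and 2750 higher after correction. Of the genes for amino acid uptake, synthesis and tRNA charging that are induced through ATF4, 23 of 24 in the table were tested, and 16 were lower and 0 higher in Control tumors than in Control cultures, or 20 lower and 0 higher after correction. Their median log2 fold change was -1.0 against 0.067 over all genes, and -1.21 against -0.034 after correction. The most negative, picked after their values were seen, were SLC7A11, the cystine and glutamate exchanger, at -2.84 (SE 0.25, adjusted p = 6.66e-10) and PSAT1, an enzyme of serine synthesis, at -2.69 (SE 0.17, adjusted p = 2.02e-12). A list of 15 genes held eIF2, its kinases, its exchange factor and the regulators PPP1R15B, GCN1 and IMPACT. Of these 15 genes, 11 were lower and 1 higher, or 11 and 2 after correction. EIF2S2, the beta subunit of eIF2, was at -1.42 (SE 0.13, adjusted p = 2.51e-09), again picked after its value was seen. A list of 8 genes for mitochondrial stress held carriers of its signal to eIF2 and also mitochondrial chaperones and proteases. Of these 8 genes, 5 were lower and 0 higher, or 6 and 0 after correction. The mitochondrial chaperones HSPE1 (-1.39, SE 0.27) and HSPD1 (-1.38, SE 0.17), also picked after their values were seen, were among them. The 18 tested of 20 other stress genes downstream of ATF4 were divided, with 2 lower and 4 higher, or 5 and 2 after correction. Among them GDF15, a secreted stress cytokine, was at -1.13 (SE 0.37) and CEBPG, a dimer partner of ATF4, at -0.80 (SE 0.12), picked in the same way, while EIF4EBP1, a translation repressor, was higher, at 1.32 (SE 0.37, adjusted p = 0.00421), and at 0.43 (adjusted p = 0.103) after correction, which was not a call. The 20 genes of the IRE1 and ATF6 arms of the ER stress response gave 5 lower and 2 higher, or 4 and 3 after correction. Of these, DNAJB11 was at -0.79 (SE 0.14) and HERPUD1 at -0.66 (SE 0.17), both picked after their values were seen, and DNAJB9 was higher, at 0.61 (SE 0.20, adjusted p = 0.0134) and 0.92 (adjusted p = 0.000218) after correction.

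**Figure D1:**
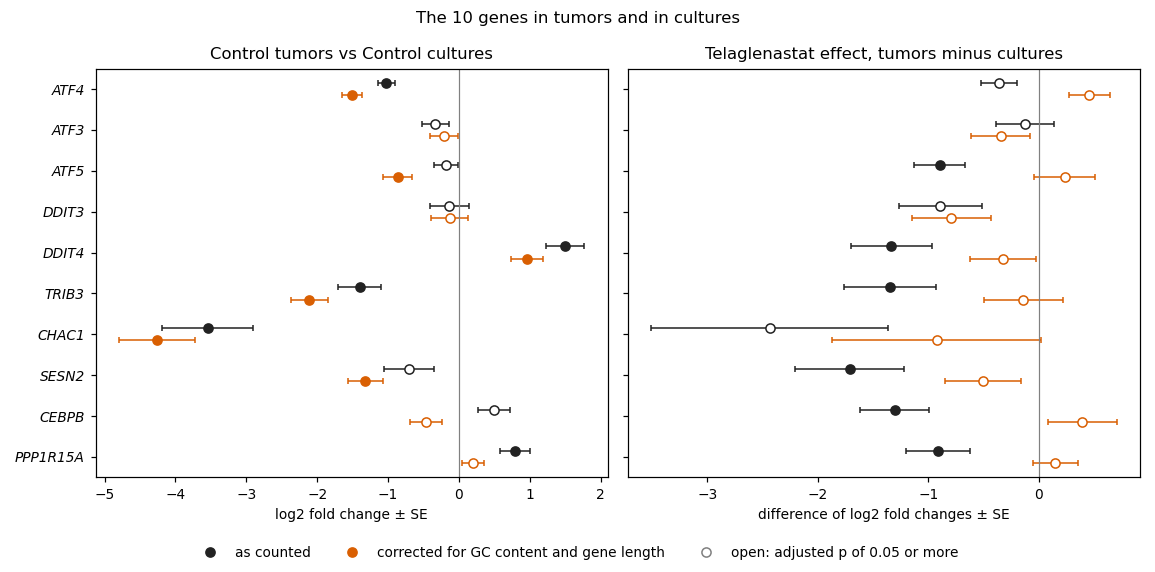
Log2 fold change ± SE (x axis) of the 10 genes (y axis) for Control tumors against Control cultures and for the difference of the Telaglenastat effect between tumors and cultures, as measured and corrected for length and GC content; open points did not pass the adjusted p of 0.05. CHAC1 lies at -3.54 and -4.26 and DDIT4 at 1.5 and 0.96 in the first panel, and no corrected point passes in the second.

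Telaglenastat blocks the step that makes glutamate from glutamine, and its comparison with vehicle asks how tumors that remained under the drug differed in this pathway. Without correction, 8 of the 10 genes were lower in Telaglenastat tumors than in Control tumors and 0 were higher, where 51.1% of 14848 genes were called and 28.5% were called lower. Of all genes at 55 to 60, 60 to 65 and 65 to 70% GC, 68.6%, 82.3% and 81.7% were called lower. In these ranges lie 8 of the 10 genes. After correction 5 of 10 genes were higher and 0 lower, where 14.8% of genes were called and 6.38% were called higher. The median over the 10 genes was -0.64 without and 0.39 with correction, against 0.027 and 0.011 over all genes. The direction for this gene group thus depended on the correction, and each gene is given on both scales.

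Among the transcription factors, ATF4 and CEBPB were called higher after correction. ATF4 was at 267, 282 and 232 CPM in Control and 228, 270, 254 and 253 CPM in Telaglenastat tumors, and the groups overlapped. Its log2 fold change was -0.16 (SE 0.07, adjusted p = 0.0768). After correction its levels were 209, 216 and 178 CPM in Control and 300, 355, 364 and 339 CPM in Telaglenastat tumors, without overlap, and it was higher by 0.65 (SE 0.09, adjusted p = 4.12e-05). CEBPB was at 19.6, 23.9 and 21.7 CPM in Control and 13.3, 13.4, 16.1 and 16.5 CPM in Telaglenastat tumors. It was lower by this measure (log2 fold change -0.66, SE 0.17, adjusted p = 0.00314). After correction it was at 11.8, 14.3 and 13.4 against 23.4, 24.1, 31.5 and 30.8 CPM and was higher by 0.95 (SE 0.16, adjusted p = 0.000367). The groups did not overlap on either scale, and they stood in opposite orders. With each of the 16 tumor libraries left out in turn, the corrected calls of ATF4 and CEBPB were kept.

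ATF5 was lower without correction (log2 fold change -0.63, SE 0.17, adjusted p = 0.00369) and at 0.49 (SE 0.18, adjusted p = 0.0819) with it, which was not a call. DDIT3 was at 21.6, 21.7 and 18.8 CPM in Control and 15.1, 13.1, 18.6 and 13.4 CPM in Telaglenastat tumors. It was lower without correction (-0.57, SE 0.20, adjusted p = 0.0234), though the call was lost when any of 4 libraries was left out (Control 1 and 2, Telaglenastat 2 and 4, with values of -0.54 to -0.51). After correction DDIT3 was at -0.47 (SE 0.19, adjusted p = 0.117), the same direction with no call. With a GC content of 49.7%, DDIT3 lies in a range of GC where the median of all genes was 0.11. ATF3, the gene of lowest GC content among the 10, differed by -0.05 (interval -0.36 to 0.25), and by -0.18 (SE 0.15, adjusted p = 0.502) after correction.

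Of SESN2, DDIT4 and TRIB3, SESN2 had the largest called difference without correction. It was at 13.5, 11.9 and 12.2 CPM in Control and 6.64, 4.47, 5.95 and 5.26 CPM in Telaglenastat tumors, without overlap. It was lower without correction (log2 fold change -1.27, SE 0.20, adjusted p = 2.72e-05), and with it was at -0.20 (SE 0.18, adjusted p = 0.516), which was not a call. DDIT4 was at 207, 278 and 237 CPM against 169, 158, 171 and 161 CPM. It was lower without correction (-0.65, SE 0.12, adjusted p = 0.000142) and higher with it (0.30, SE 0.10, adjusted p = 0.0454). TRIB3 was at 25.2, 25.9 and 20.8 CPM against 17.5, 20.4, 14.9 and 11.7 CPM. It too was lower without correction (-0.68, SE 0.19, adjusted p = 0.00486) and higher with it (0.51, SE 0.16, adjusted p = 0.0328). With 1 library left out, the corrected call was lost in 9 of 16 fits for DDIT4 and in 6 of 16 for TRIB3.

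CHAC1 was near the limit of counting in tumors. Its counts were 8, 5 and 6 in Control and 1, 0, 2 and 2 in Telaglenastat tumors, with no overlap between the groups. The summed counts of 5 against 19 gave a ratio per depth of 0.269, with an exact 95% interval of 0.0786 to 0.745 that covers counting error only. The fitted log2 fold change was -1.91 (SE 0.78, adjusted p = 0.0463), a call that was lost in 11 of the 16 fits with 1 library left out. After correction it was -0.63 (SE 0.80, adjusted p = 0.684). CHAC1 passed the filter on low counts only through the Palbociclib tumors, where it was highest. PPP1R15A, the eIF2 phosphatase subunit, was at 46.5, 57.1 and 39.6 CPM in Control and 42.8, 36.7, 29.6 and 36.6 CPM in Telaglenastat tumors, with overlap. It was lower without correction (-0.50, SE 0.13, adjusted p = 0.00302) and higher with it (0.51, SE 0.13, adjusted p = 0.00801), a corrected call that was lost without Control 3. Set against genes of like GC content, in bins of 5 percentage points, the uncorrected log2 fold change of CEBPB was 1.00 above the bin median, TRIB3 was 0.74 above and ATF4 0.72 above, while DDIT3 was 0.68 below, CHAC1 0.48 below and SESN2 0.40 below.

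**Figure D2:**
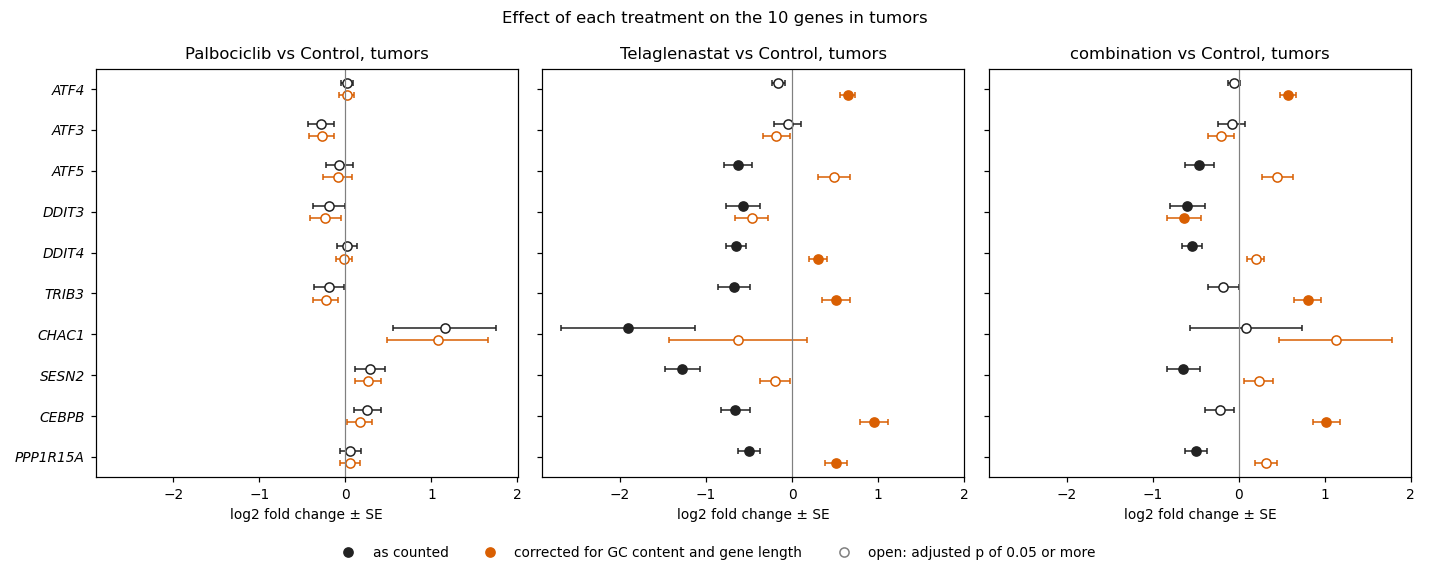
Log2 fold change ± SE (x axis) of the 10 genes (y axis) in Palbociclib, Telaglenastat and combination tumors against Control, as measured and corrected for length and GC content; open points did not pass the adjusted p of 0.05. In the Telaglenastat panel CEBPB moves from -0.66 to 0.95 and ATF4 from -0.16 to 0.65, while in the Palbociclib panel all points are open.

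In combination tumors, 5 of the 10 genes were lower than in Control and 0 higher, where 44.5% of genes were called and 26.9% were called lower. Of all genes at 55 to 60, 60 to 65 and 65 to 70% GC, 60.2%, 74.2% and 70.0% were called lower. After correction 3 of the 10 genes were higher and 1 lower, where 26.3% of genes were called and 13.3% were called higher. ATF4 was at 262, 265, 274 and 274 CPM in combination tumors, within the Control range, with a log2 fold change of -0.05 (interval -0.20 to 0.09). After correction it was at 342, 316, 312 and 316 CPM, above every Control tumor, and was higher by 0.58 (SE 0.09, adjusted p = 8.14e-05). TRIB3 was at 24.6, 24.2, 19.6 and 22.8 CPM, with a log2 fold change of -0.18 (SE 0.18, adjusted p = 0.465), and after correction was higher by 0.80 (SE 0.15, adjusted p = 0.000636). CEBPB was at 18.9, 20.3, 17.1 and 23.6 CPM, with a log2 fold change of -0.22 (SE 0.17, adjusted p = 0.304), and after correction was higher by 1.02 (SE 0.16, adjusted p = 8.36e-05). These 3 genes thus passed only after correction, and their corrected calls were kept in all 16 fits with 1 library left out.

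DDIT3 was the 1 gene of the 10 called in the same direction on both scales in combination tumors. It was at 15.6, 14.6, 9.96 and 18.7 CPM, against 21.6, 21.7 and 18.8 CPM in Control. All 4 values were below the lowest Control value, the highest by little. The log2 fold change was -0.60 (SE 0.20, adjusted p = 0.0211) and -0.64 (SE 0.19, adjusted p = 0.0192) after correction. Both calls were lost without Control 1 (-0.56 and -0.59), Control 2 (-0.57 and -0.63) or combination 3 (-0.45 and -0.48), so that single libraries decided them. DDIT4 (-0.55, SE 0.12), SESN2 (-0.64, SE 0.19), PPP1R15A (-0.50, SE 0.13) and ATF5 (-0.46, SE 0.17) were lower without correction, and were at 0.20, 0.23, 0.32 and 0.45 with it, none of which was a call. CHAC1 counts were 6, 8, 6 and 1, and its log2 fold change of 0.08 had an interval of -1.20 to 1.36.

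Palbociclib alone left no call among the 10 genes on either scale, where 6.16% of genes were called without and 7.74% with correction. By edgeR's quasi-likelihood test 0 of the 10 also had an unadjusted p under 0.05, and DESeq2 called 0. The intervals were narrow for ATF4 (-0.12 to 0.15), DDIT4 (-0.21 to 0.24) and PPP1R15A (-0.18 to 0.29). CHAC1 had 25, 6, 17, 14 and 11 counts in Palbociclib tumors, or 73 in all, against 19 in the 3 Control tumors. The ratio per depth was 2.30, with an exact interval of 1.37 to 4.04 for counting error, and the fit, which includes the spread between tumors, gave 2.22-fold, a log2 fold change of 1.15 (SE 0.60, adjusted p = 0.328) that was not a call. CHAC1 passed the filter on low counts only through these Palbociclib tumors, so that both values favour the group that let it pass.

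The combination was also compared with each single drug. In combination against Palbociclib tumors 5 genes were lower (ATF5, DDIT4, SESN2, CEBPB and PPP1R15A) and 0 higher, where 47.6% of genes were called. After correction 4 were higher and 0 lower, where 15.4% were called: ATF4 by 0.56 (SE 0.08, adjusted p = 4.1e-05), ATF5 by 0.54 (SE 0.16, adjusted p = 0.0261), TRIB3 by 1.03 (SE 0.14, adjusted p = 2.48e-05) and CEBPB by 0.85 (SE 0.14, adjusted p = 0.000199). TRIB3 without correction was at 0.02 (interval -0.30 to 0.34). Adding Palbociclib to Telaglenastat gave 1 call, where 18.8% of genes were called. SESN2 was higher in combination tumors, at 8.70, 7.80, 8.70 and 9.13 CPM against 6.64, 4.47, 5.95 and 5.26 CPM, by 0.63 (SE 0.20, adjusted p = 0.0287). The groups did not overlap. After correction 0 of the 10 genes were called, where 15.7% of genes were, and SESN2 was at 0.44 (SE 0.17, adjusted p = 0.0974). At an unadjusted p under 0.05 there were 2 corrected genes. CHAC1 had 21 counts in the combination and 5 in the Telaglenastat tumors, a ratio per depth of 4.23. Its exact interval of 1.55 to 14.3 covers counting error only. The fit, which includes the spread between tumors, gave a log2 fold change of 1.99 (SE 0.75, adjusted p = 0.0698), which was not a call. The combination differed from the sum of the single effects in 0 of the 10 genes, where 0.0673% of genes were called, with 1 gene at an unadjusted p under 0.05. That gene was TRIB3, at 0.69 (SE 0.25, adjusted p = 0.371), and DESeq2 called 0 of the 10.

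In the cultures, 0 of the 10 genes passed the adjusted threshold in the 5 comparisons by edgeR's quasi-likelihood test, with or without correction, or by DESeq2. This stands against 0% of 13985 genes called for Palbociclib against Control, 0% for Telaglenastat against Control, 0.00715% for combination against Control, 0% for combination against Palbociclib and 0% for combination against Telaglenastat. At an unadjusted p under 0.05 there were 0, 3, 0, 0 and 1 of the 10 genes in these comparisons, and 0, 3, 4, 0 and 0 after correction. In combination against Control cultures all 10 corrected log2 fold changes were above 0, with a median of 0.40, against 7 of 10 and a median of 0.10 as measured. As measured, the 3 genes in Telaglenastat against Control cultures were CEBPB at 0.74 (SE 0.27, adjusted p = 0.712), DDIT4 at 0.78 (SE 0.36, adjusted p = 0.769) and ATF5 at 0.36 (SE 0.17, adjusted p = 0.769). All 10 log2 fold changes were above 0 in Telaglenastat against Control cultures, on both scales, with a median of 0.52 (0.31 corrected) against 0.044 (0.0087 corrected) over all genes.

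A single library weighed on these values. The second Telaglenastat culture lay above the 11 other cultures in 7 of the 10 genes, and in 4 after correction, and its slope on GC content was 0.292, against at most 0.0496 in the others. CHAC1 was at 3.58, 24 and 10.4 CPM in the 3 Telaglenastat cultures, with 1.56 to 12.8 CPM over the 11 cultures other than the second. SESN2 was at 13.6, 53.7 and 21.1 CPM, with 8.02 to 29.6 CPM over the other 11. ATF4, at 531, 658 and 786 CPM, was not highest in that library. Control cultures also spread widely, at 8.14, 3.84 and 12.8 CPM for CHAC1 and 20.1, 11.5 and 29.6 CPM for SESN2, so that the interval for CHAC1 in Telaglenastat against Control cultures ran from -0.56 to 1.8 and that for SESN2 from -0.34 to 1.4.

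The effect of Telaglenastat against Control was then compared between tumors and cultures in 1 fit of all 28 libraries. Without correction 6 of the 10 genes had a lower effect in tumors, where 34.1% of 15466 genes were called. These were SESN2 at -1.71 (SE 0.49, adjusted p = 0.00919), TRIB3 at -1.35 (SE 0.41, adjusted p = 0.0136), DDIT4 at -1.34 (SE 0.37, adjusted p = 0.00658), CEBPB at -1.31 (SE 0.31, adjusted p = 0.00236), PPP1R15A at -0.91 (SE 0.29, adjusted p = 0.0159) and ATF5 at -0.90 (SE 0.23, adjusted p = 0.00471). After correction 0 of the 10 were called, where 4.82% of genes were, and 2 had an unadjusted p under 0.05. Without the second Telaglenastat culture 3 genes were called, and without the first 9. The Palbociclib effect did not give a call in any of the 10 genes (1.39% of all genes, 1 of the 10 at an unadjusted p under 0.05), nor did the combination effect (2.91% of all genes, 2 of the 10 at an unadjusted p under 0.05), and DESeq2 called 0 in both.

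The other lists showed in tumors which parts of the wider pathway moved on both scales. In Telaglenastat tumors, the amino acid genes gave 12 lower and 6 higher of 23, and 2 lower and 1 higher after correction, where 51.1% and 14.8% of all genes were called in either direction. EIF4EBP1, a translation repressor that ATF4 induces, was lower on both scales, at -2.43 (SE 0.22, adjusted p = 5.03e-08) and -0.86 (adjusted p = 0.00126) after correction, with mean levels of 7.01 CPM against 35.4 CPM in Control. ALDH1L2 (0.82), IMPACT (0.57) and OMA1 (0.54) were higher, and SDF2L1 (-2.22) and CLPP (-2.10) lower, and these 5 were called only without correction. In Palbociclib tumors, where none of the 10 genes was called, PHGDH, the first enzyme of serine synthesis, was lower, at -0.76 (SE 0.19, adjusted p = 0.0168), as was FAM129A, at -0.92 (SE 0.25, adjusted p = 0.0298). PMAIP1, a proapoptotic BH3 protein, was higher by 0.56 (SE 0.12, adjusted p = 0.00463), the ER chaperone cofactor DNAJB9 by 0.45 and IMPACT, a regulator of the eIF2 kinase GCN2, by 0.31. All 5 were also called after correction.

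PHGDH had mean levels of 48.7 ± 3.23 CPM (SD, n = 3) in Control, 28.7 ± 7.26 (n = 5) in Palbociclib, 18 ± 4.75 (n = 4) in Telaglenastat and 10.8 ± 2.59 (n = 4) in combination tumors. Combination against Control gave -2.27 (SE 0.22, adjusted p = 1.34e-07) and -1.97 (adjusted p = 9.29e-07) after correction. In combination tumors the ER stress genes gave 11 higher and 5 lower of 20, and 8 higher and 2 lower after correction, where 44.5% and 26.3% of all genes were called in either direction, with a median of 0.38 (0.22 corrected) against -0.036 (0.0080 corrected) over all genes. HSPA5, the main ER chaperone BiP, was higher by 0.70 (SE 0.10, adjusted p = 9.78e-06) and 0.55 (adjusted p = 0.000119) after correction, at mean levels of 1710 against 981 CPM. DNAJB9 was higher by 0.89 and PMAIP1 by 0.84, and CLPP (-2.02) and SDF2L1 (-1.98) were lower, all of which were called after correction too. In combination against Telaglenastat tumors 9 of the 20 ER stress genes were higher and 0 lower, and 8 and 0 after correction, where 18.8% and 15.7% of all genes were called in either direction. The other stress genes downstream of ATF4 gave 6 higher and 0 lower of 18, and 7 higher and 1 lower after correction, in the same comparison. In cultures 0 genes of any list were called in any of the 5 comparisons.

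For each of the 7 genes whose mean levels spanned more than 1 log2 unit, the 3 genes of 12573 compared with the most similar profile of mean levels over the 8 conditions were found, by the root mean square difference of centred log2 levels. ATF4 was nearest to HAX1 (0.0786), GOT1 (0.0884) and CARS (0.0955). GOT1 encodes an aspartate aminotransferase and CARS a tRNA synthetase. CHAC1 was nearest to DHRS3 (0.60), SLC7A11 (0.677) and PSAT1 (0.679), which are far larger differences than those of ATF4. ATF5 was nearest to GPT2 (0.0946), an alanine aminotransferase, then SLC25A4 and DNHD1, and TRIB3 to SUN3 (0.210), HRK and MRVI1. DDIT3 was nearest to HBE1, DHRS4 and RP11-111M22.3, DDIT4 to SMARCD3, SYT17 and H6PD, and SESN2 to KCNG1, SLC39A3 and PIP5KL1, at 0.10 to 0.167. These profiles have 8 points each and share libraries and the trend on GC content.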

How the data were processed

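RNA was extracted with a column kit and DNase, poly(A) RNA was made into libraries with a strand-marking kit, and reads were aligned and counted per gene with STAR on hg38 after CASAVA 1.8, per the labels and the study's methods. The authors deposited whole-number counts per gene, not normalized, with 1 column for each sample. The annotation release and the strand setting used in counting are not given in the sources used here; gene IDs matched GENCODE 29 for 57940 of 58278 genes, which gave GC content and length. Rows without any count numbered 22232.

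Counts were analysed in R 4.3.3 with edgeR 4.0.16 and limma 3.58.1. Genes were kept by filterByExpr (minimum count 10), scaled by TMM and fitted with the quasi-likelihood test, in 1 fit of the 16 tumors, 1 of the 12 cultures and 1 of all 28 libraries for comparisons between settings. P-values were adjusted by Benjamini-Hochberg over all genes of a fit, with a threshold of 0.05. Intervals of log2 fold changes are 1.96 SE to each side, 95%. The correction subtracted from each library a spline on GC content (4 degrees of freedom) and log gene length (3), entered as offsets. DESeq2 1.42.0, its size factors in edgeR, no filter, other sample sets, a replicate block and each library left out were alternatives. The fits were tested on simulated counts. Log2 CPM used a prior count of 2.

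The 10 genes and the lists were chosen with earlier results of these data known. Beside the 10 genes, the text names, for each treatment against Control in tumors, the called genes of the 5 lists with the largest rises and falls, at most 3 of each. For Control tumors against Control cultures, further genes of the lists were named after their values had been seen. Profiles were compared for genes with a mean of at least 1 log2 CPM. The labels number the samples of a group without naming the mice, so p-values measure the spread between these samples. Replicate numbers were not used to pair samples in the main fits, and whether they do pair samples was not settled.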

Additional observations from a re-analysis of the deposited data

Results flagged for a closer look

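The effect of Telaglenastat against Control differed between tumors and cultures in 6 of the 10 genes by edgeR's quasi-likelihood interaction test, on the scale without correction. The difference, tumor effect minus culture effect on the log2 scale, was -0.90 for ATF5, -1.34 for DDIT4, -1.35 for TRIB3, -1.71 for SESN2, -1.31 for CEBPB and -0.91 for PPP1R15A. After correction the same differences were 0.23 for ATF5, -0.33 for DDIT4, -0.14 for TRIB3, -0.51 for SESN2, 0.39 for CEBPB and 0.15 for PPP1R15A, and 0 of the 10 genes were called. The slope of expression on GC content was -0.241 ± 0.0351 (SD, n = 4) in Telaglenastat and 0.343 ± 0.00575 (n = 3) in Control tumors, and 0.292 in the second Telaglenastat culture. Without that culture 3 of the 10 genes were called. Levels of the 10 genes were looked at in 30 sets of 4 or 5 libraries, 1 for each gene in each tumor group other than Control. No level stood apart from its set by Dixon's 95% criterion. The check was of these levels and not of the slope on GC content. That slope was 0.189 in the second Palbociclib tumor and 0.401 to 0.445 in the other Palbociclib tumors. Groups of 3 libraries, which are every culture group and the Control tumors, were not looked at. The check therefore says nothing about the second Telaglenastat culture.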

How the results depend on the processing

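Correcting for length and GC content changed most. With it, the genes called among the 10 were 5, all higher, for Telaglenastat against Control in tumors, 4 for combination against Control, 4 for combination against Palbociclib, 0 for combination against Telaglenastat and 0 for the Telaglenastat effect in tumors minus cultures. Values called on at least 1 of the scales turned sign for Telaglenastat against Control in ATF4 (0.65), ATF5 (0.49), DDIT4 (0.30), TRIB3 (0.51), CEBPB (0.95) and PPP1R15A (0.51), for combination against Control in ATF4 (0.58), ATF5 (0.45), DDIT4 (0.20), TRIB3 (0.80), SESN2 (0.23), CEBPB (1.02) and PPP1R15A (0.32), for combination against Palbociclib in ATF4 (0.56), ATF5 (0.54), DDIT4 (0.21), CEBPB (0.85) and PPP1R15A (0.27), and for the Telaglenastat effect in tumors minus cultures in ATF5 (0.23), CEBPB (0.39) and PPP1R15A (0.15). Values called on neither scale also turned, among them CHAC1 for combination against Palbociclib (0.06). With straight lines in place of splines, chosen after seeing the data, 3 genes were called for corrected Telaglenastat against Control. GC content alone and corrected fits with each library left out were also chosen after seeing the data.

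In 1 fit of all 28 libraries the counts were 3 for Telaglenastat against Control, 0 for combination against Control, 2 for combination against Palbociclib and 0 for combination against Telaglenastat. For combination against Telaglenastat, DESeq2 size factors gave 2, DESeq2 gave 3 and the compared groups alone gave 3. With no filter on low counts, 2 genes were called for Telaglenastat against Control and 1 for combination against Telaglenastat in cultures, 1 for the Palbociclib effect and 2 for the combination effect in tumors minus cultures. With 1 library left out, the counts ran from 3 to 5 for combination against Control, 0 to 3 for combination against Telaglenastat, 2 to 5 for corrected Telaglenastat against Control, 0 to 1 for combination against Telaglenastat in cultures and 3 to 9 for the Telaglenastat effect in tumors minus cultures. The cause of these changes was not tested.

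The labels do not say whether replicate numbers pair samples, and with so few libraries a group the correlations cannot settle it. Samples of the same number had correlations of deviations of -0.128 to 0.0896 in tumors and -0.423 to 0.140 in cultures. For samples of other numbers these were -0.110 to 0.109 in tumors and -0.146 to 0.271 in cultures. With the replicate number as a block, 3 genes were called for combination against Control and 2 for combination against Telaglenastat. Tumor CHAC1 counts of 0 to 25 a library limit that gene.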
